A study of Homo sapiens with 12 samples.

Results

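Valleys of H3K4me1 away from promoters were examined in HepG2, an established human hepatocellular carcinoma line. A valley here is a gap of 200 to 1000 bp between neighbouring H3K4me1 peaks on chromosomes 1 to 22 and X that has no H3K4me3 peak inside it or within 5000 bp. The members were thus selected on the positions of the H3K4me1 and H3K4me3 peaks, and their widths, flanks and distances to H3K4me3 are given only as descriptions. H3K27ac played no part in the choice. The rule found 25252 valleys among 182569 gaps between neighbouring H3K4me1 peaks. Chromatin from fixed, untreated cells was immunoprecipitated with antibodies to H3K27ac, H3K4me1 or H3K4me3, with 3 libraries per mark. A further 3 control libraries were titled as input, although their antibody label names an anti-mouse immunoglobulin G. All 12 libraries came from the same line, so every value below describes cancer cells in culture and no other liver cell.

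H3K4me1, a single methyl group on lysine 4 of histone H3, marks enhancers whether or not they are active, while H3K4me3 on the same lysine marks active promoters. H3K27ac, an acetyl group on lysine 27, is found at active enhancers and promoters. Active regulatory elements are often pictured as a short stretch depleted of nucleosomes, where transcription factors bind, with modified nucleosomes on either side, so that a histone mark can show a valley between shoulders. Where the acetylation lies relative to gaps between called H3K4me1 peaks was the question asked of the peak lists. Whether these gaps are depleted of nucleosomes was not tested.

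The lists held 182592 H3K4me1, 66513 H3K27ac and 24446 H3K4me3 peaks on these chromosomes, and going by their names each pooled the 3 replicates of its mark. With only pooled lists used here, sequencing depth and the spread between cultures are unknown, and no test between cultures was possible. Shares are given with 95% Wilson intervals. These reflect counting error alone and take adjacent gaps as independent. The spread over the 23 chromosomes shows how even a value was across the genome. Positions are on hg19, the build that the submitters' processing notes name. Genes and sequences at these positions were not analysed here.

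The valleys had a median width of 427 bp (interquartile range 295 to 661) and lay a median of 22.3 kb from the nearest H3K4me3 peak (10.8 to 48.7). They were bordered by 44114 H3K4me1 peaks. These flanking peaks had a median width of 684 bp and a median signal value of 3.43, against 696 bp and 3.42 over the whole H3K4me1 list. The signal value is the authors' own, from their peak caller. Flanking summits lay a median of 285.5 bp from the edge of the valley, and 52.0% of them (51.6 to 52.5) were in the part of the peak that faced it. A peak shared by neighbouring valleys entered these last values once for each valley. The shoulders therefore resembled H3K4me1 peaks at large in width and strength, and their summits leaned very little towards the valley.

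Most valleys, like most gaps of the list, held no called acetylation. An H3K27ac peak touched 5443 of the 25252 valleys by at least 1 bp, or 21.6% (21.1 to 22.1, SD 5.50 over 23 chromosomes). The same share was 23.7% over all gaps of the H3K4me1 list and 27.7% over all gaps of 200 to 1000 bp. An H3K27ac summit, the position of the highest pile-up in a peak, lay in 858 valleys, or 3.40% (3.18 to 3.63, SD 1.13). Over all gaps of the list that share was 9.78%, and over all gaps of 200 to 1000 bp it was 6.73%. Both shares for the valleys were below those of all gaps, but all gaps were wider, with a median of 1867 bp against 427 bp. Per base the order was the other way. H3K27ac covered 11.0% of the bases of the valleys and 1.03% of those of all gaps, with 0.0706 and 0.00757 summits per kb. The gaps of 200 to 1000 bp include those with H3K4me3 inside, described below. With at least 50% of the valley covered as the requirement, 12.8% counted as acetylated. When H3K27ac peaks had to reach a −log10 q-value of 5, the summit share was 1.91%, and with the summit required in the central 50% of the valley it was 1.77%.

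Gaps of the same widths at H3K4me3 peaks differed from the valleys in both measures. Inside here means that an H3K4me3 peak overlapped or abutted the gap, not that it was confined to it. H3K4me3 peaks had a median width of 1536 bp, so many also ran over the shoulders. Of 6861 gaps with an H3K4me3 peak inside, 71.7% (70.6 to 72.8) were touched by an H3K27ac peak and 29.7% (28.6 to 30.8) held a summit. The difference from the valleys averaged 49.2 percentage points for touching (SD 8.18 over chromosomes) and 25.6 percentage points for summits (SD 4.88), and both were positive on 23 of 23 chromosomes. Of 14924 gaps with H3K4me3 within 5000 bp but not inside, 17.8% (17.2 to 18.4) were touched and 1.82% (1.62 to 2.05) held a summit. This summit share was below that of the valleys on 23 of 23 chromosomes, by 1.66 percentage points on average (SD 0.76). It was H3K4me3 overlapping the gap, not only nearby, that went with acetylation inside it.

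**Figure D1:**
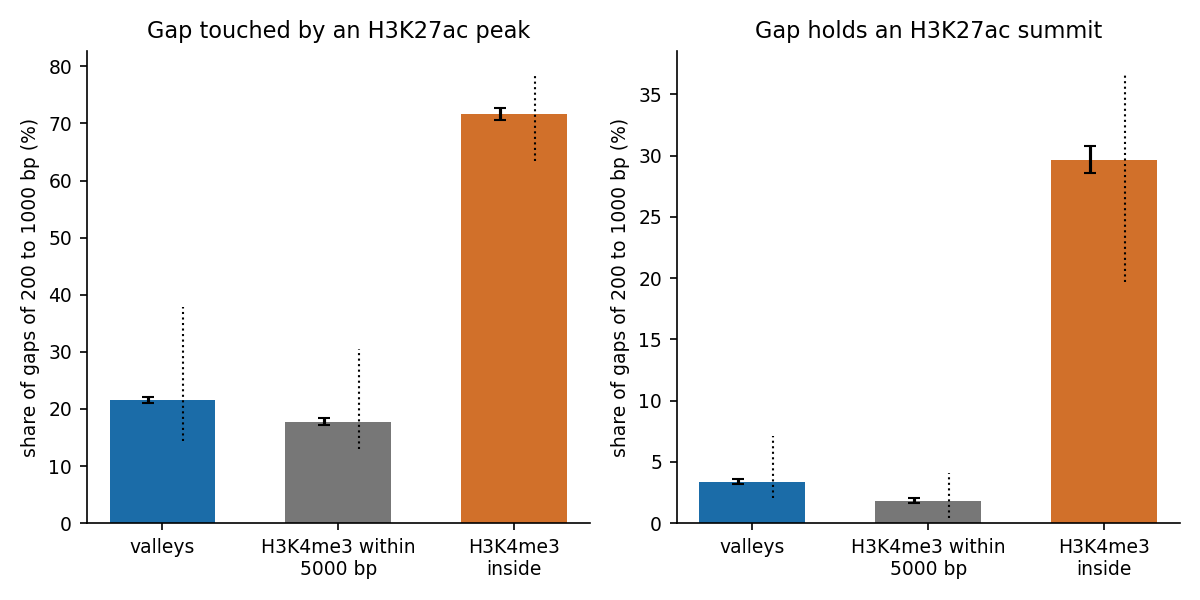
Share of H3K4me1 gaps of 200 to 1000 bp that an H3K27ac peak touches (left) and that hold an H3K27ac summit (right), for valleys, gaps with H3K4me3 within 5000 bp and gaps with H3K4me3 inside. Bars are shares over all gaps, solid lines their 95% Wilson intervals and dotted lines the range over 23 chromosomes. Valleys stand at 21.6% and 3.40%, gaps with H3K4me3 inside at 71.7% and 29.7%.

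Acetylation lay more in the shoulders than in the valleys, although H3K27ac peaks overlapped only 31.6% of the 44114 flanking peaks. H3K27ac peaks covered 11.0% of the bases of the valleys and 34.0% of the bases of the flanking H3K4me1 peaks. Within chromosomes the difference averaged -23.1 percentage points (SD 1.87, range -26.1 to -19.2) and was negative on 23 of 23. H3K27ac summits numbered 872 in the valleys, or 0.0706 per kb, and 13732 in the flanking peaks, or 0.279 per kb. The ratio of the densities was 0.253, so summits were 3.96-fold denser in the shoulders. By chromosome the ratio ranged from 0.16 to 0.45 and was below 1 on 23 of 23. The same order held in other gaps without H3K4me3 inside. With H3K4me3 within 5000 bp the density ratio was 0.166 and the coverage difference -30.9 percentage points, with the gap lower on 23 of 23 chromosomes in both. In gaps under 200 bp away from H3K4me3 the density ratio was 0.214. The lower level in the gap was therefore not particular to the valleys. Gaps with H3K4me3 inside went the other way. There 62.6% of the bases in the gap and 48.8% in its shoulders were covered, and the summit density ratio was 2.79, above 1 on 23 of 23 chromosomes.

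The comparison also held at equal width. Windows as wide as each valley were placed on the H3K4me1 summits of its flanking peaks. They were not cut at the edges of the peak, so a window could reach into the valley or past the shoulder. Of these 50504 windows, 30.8% (30.4 to 31.2) were touched by an H3K27ac peak and 15.9% (15.5 to 16.2) held a summit, against 21.6% and 3.40% for the valleys themselves. Coverage was 23.2% in the windows, some of which hold bases outside the shoulders. Measured against them, the difference in covered bases was -12.2 percentage points. The summit density was 0.328 per kb in the windows, so that ratio changed little, to 0.216.

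Seen from the centre of the gap outwards, H3K27ac formed a dip with shoulders of its own. At the centre 12.2% of the valleys were covered by an H3K27ac peak. The share rose to 20.6% at 600 bp to the left and 20.5% at 600 bp to the right, and fell to 13.6% and 13.7% at 3000 bp. The centre was thus covered less often than positions 3000 bp away. The SD of the centre share over chromosomes was 4.62 percentage points, but the spread of this difference within chromosomes was not computed. By the rule no valley centre falls in an H3K4me1 peak. At the outer ends H3K4me1 peaks were present for 31.4% (left) and 31.2% (right). The difference thus does not show the centre below other bases free of H3K4me1 peaks. Over all gaps of the list, H3K27ac covered 1.03% of such bases. Summit density was 0.0744 per kb around the centre, 0.222 per kb 500 bp left of it, 0.219 per kb 500 bp right of it, and 0.101 and 0.0996 per kb at the outer ends, 3000 bp away. In gaps with H3K4me3 inside, coverage was flat across the middle, with 60.7% at the centre and at most 62.0% beside it, and summit density was 0.664 per kb at the centre against 0.320 and 0.317 per kb 500 bp away.

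**Figure D2:**
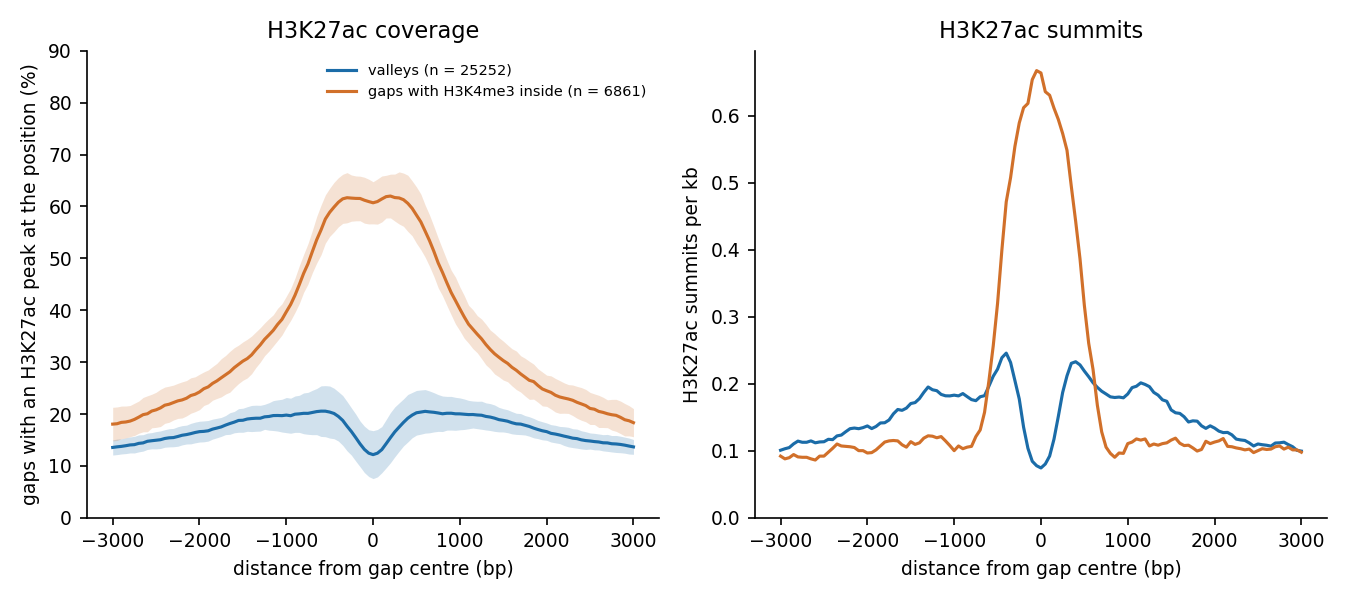
H3K27ac around the centres of 25252 valleys (blue) and 6861 gaps with H3K4me3 inside (orange), by distance from the gap centre in bp. The left panel gives the share of gaps covered by an H3K27ac peak, with a band of 1 SD over 23 chromosomes, and the right panel H3K27ac summits per kb in windows of 250 bp. Valleys show a dip to 12.2% and 0.0744 per kb at the centre, where the other gaps have 60.7% and 0.664 per kb.

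Where H3K27ac did reach a valley, it mostly crossed a single edge or ran across. Of the 5443 touched valleys, 2682 (49.3%) were entered from a single edge, with a median of 123.5 bp of the valley covered (53 to 232). A single H3K27ac peak bridged 1989 (36.5%) from edge to edge. Peaks entered 643 (11.8%) from both edges without meeting, and left a median of 167 bp uncovered (103 to 260). In 129 (2.37%) the only H3K27ac peaks lay wholly inside. Peaks of that last kind were weak and narrow, with a median signal value of 2.11 and a width of 296 bp, whereas bridging peaks had medians of 9.75 and 3062 bp. The widths are set in part by the classes, since a peak inside a valley must be narrower than it and a bridging peak at least as wide. The valley itself held a summit in 415 (15.5%) of those entered from a single edge. It did so in 162 (8.14%) of those bridged and 152 (23.6%) of those entered from both edges. Crossing an edge thus did not mean that the summit lay in the shoulder.

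Bridging depended on width. It applied to 12.8% of valleys of 200 to 400 bp, 5.55% of those above 400 to 600 bp, 2.87% above 600 to 800 bp and 1.5% above 800 to 1000 bp. Entry from a single edge varied little, from 10.2% to 10.8% across the same bins. Wider valleys held summits more often, with 2.25%, 3.80%, 4.98% and 4.64% in the 4 bins, but summits per kb went from 0.0776 in the narrowest bin to 0.0541 in the widest. In gaps with H3K4me3 inside, the summit share climbed from 7.71% in the narrowest bin to 64.3% in the widest. Their summit density ratio to the shoulders was 1.08 in the narrowest bin, where that of the valleys was 0.257, so the contrast between these kinds of gap was smallest in narrow gaps.

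**Figure D3:**
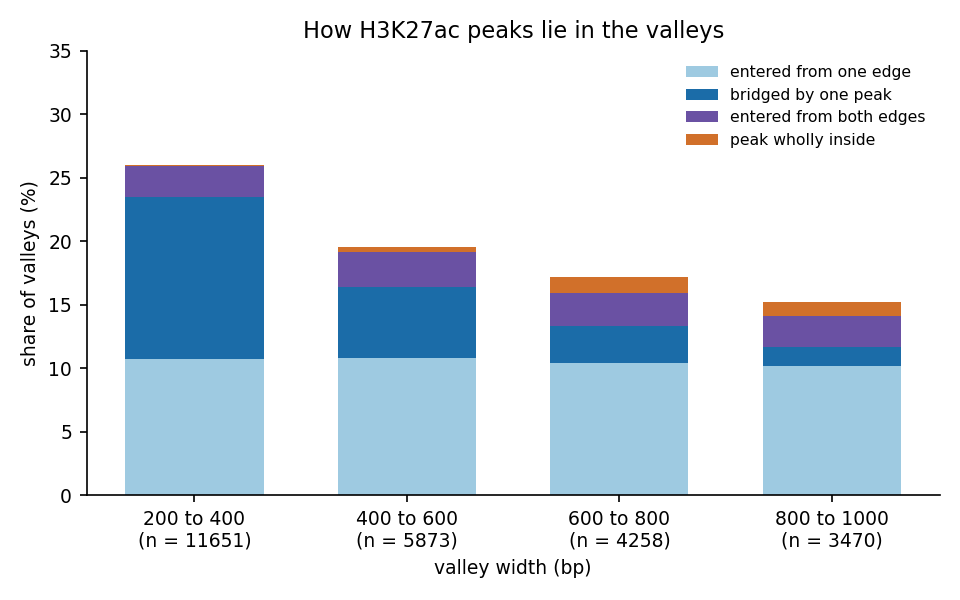
Share of valleys that H3K27ac peaks enter from a single edge, bridge as 1 peak, enter from both edges, or occupy with a peak wholly inside, by valley width in bp with the number of valleys under each bar. Bridging shrinks from 12.8% to 1.5% with width while entry from a single edge stays between 10.2% and 10.8%.

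Bridging peaks allowed the summit to be placed within continuous acetylation. There were 1728 such peaks, 215 of which bridged 2 or more valleys and the most 5. The bridged valleys made up 16.1% of the length of their peak on average, and the summit lay in one of them in 162 peaks, or 9.38% (8.09 to 10.8). The summit share was below the length share on 23 of 23 chromosomes. Among the strongest quartile of bridging peaks (median signal value 22.3, median width 5326.5 bp) the summit lay in a valley in 8 of 432, or 1.85% (0.94 to 3.61), where valleys took 8.98% of the length. In the weakest quartile (median signal value 3.50) the values were 21.5% (17.9 to 25.6) and 26.8%. The 2800 peaks that bridged gaps with H3K4me3 inside gave the opposite order, with summits in the gap in 41.3% (39.5 to 43.2) and a mean length share of 23.4%, and there the summit share was below the length share on 0 of 23 chromosomes.

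**Figure D4:**
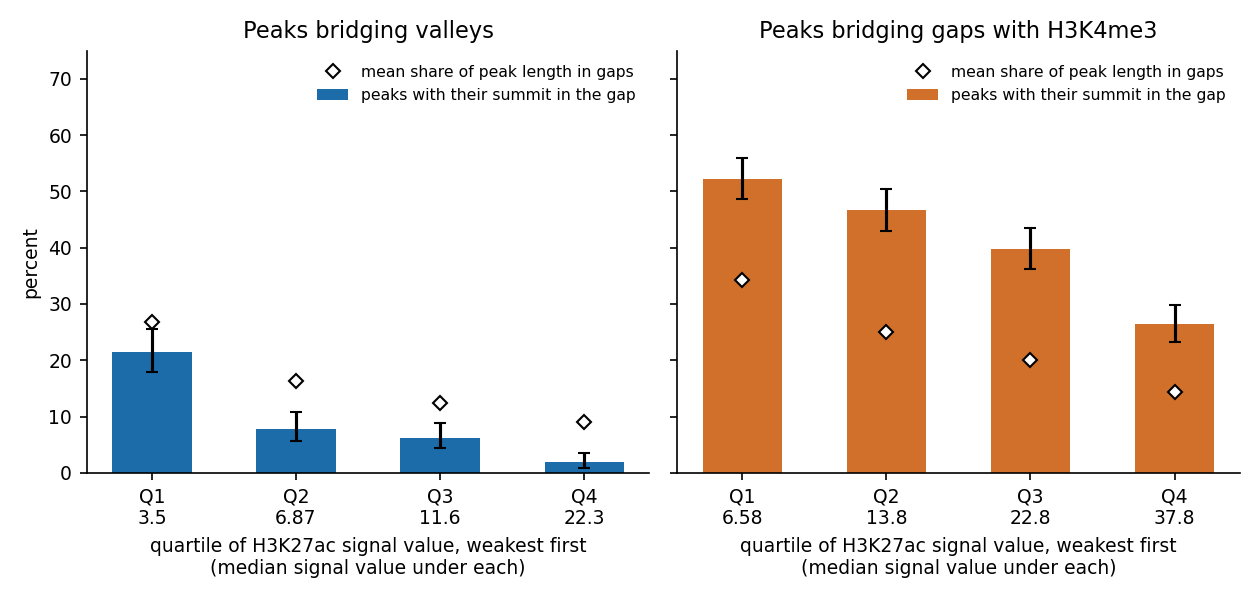
H3K27ac peaks that bridge valleys (left, 432 peaks per quartile) or gaps with H3K4me3 inside (right, 700 per quartile), by quartile of H3K27ac signal value from weakest to strongest. Bars give the percent of peaks whose summit lies in a bridged gap with 95% Wilson intervals, and diamonds the mean percent of peak length in such gaps. Bars fall below the diamonds for valleys, down to 1.85% against 8.98%, and above them for the other gaps.

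The valleys were also divided by the acetylation of their shoulders. A peak that crosses an edge of a valley overlaps the shoulder there, so the division in large part fixes how often a valley is touched, and these shares are descriptions only. Neither flanking peak overlapped H3K27ac at 13543 valleys (53.6%), only a single one did at 7085 (28.1%), and both did at 4624 (18.3%). Of the valleys with bare shoulders, 27 (0.199%) were touched. A peak there has to lie inside the valley with its summit. With a single acetylated shoulder 23.5% (22.5 to 24.5) were touched and 4.22% (3.78 to 4.71) held a summit. With both acetylated, 81.1% (80.0 to 82.2) were touched and 11.5% (10.6 to 12.5) held a summit. The level of the shoulders is fixed by the division as well. Of the 4624 valleys with both shoulders acetylated, 1095 were entered from a single edge and 873 were not entered at all. In those 873 the nearer H3K27ac peak ended a median of 163 bp short of the valley (63 to 355). Among gaps with H3K4me3 inside and both shoulders acetylated, 99.0% (98.7 to 99.3) were touched and 38.8% (37.2 to 40.3) held a summit.

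Summits in valleys belonged to weaker H3K27ac peaks than summits in H3K4me1 peaks, as did summits in other gaps. Of 35265 H3K27ac summits more than 5000 bp from an H3K4me3 peak, 28775 (81.6%, 81.2 to 82.0) lay inside an H3K4me1 peak, 872 (2.47%, 2.32 to 2.64) in a valley and 5618 (15.9%, 15.6 to 16.3) in other places. Peaks with a summit in a valley reached a signal value of 2.25 at the median (quartiles 1.94 and 3.03), and peaks with a summit inside an H3K4me1 peak 2.80 (2.14 and 4.74). Their median widths were 420 and 614 bp. Peaks with a summit in other gaps were weaker and narrower still, with medians of 2.16 and 354 bp, so low signal was not particular to valleys. Within chromosomes the log2 difference of the median signal values averaged -0.32 (SD 0.09) and was negative on 23 of 23. When these peaks were ranked by signal value in 10 equal groups, 98.0% of the summits of the strongest group lay in an H3K4me1 peak and 1.16% (0.86 to 1.57) in a valley, although 25.4% (24.0 to 26.8) of the peaks spanned a whole valley. In the weakest group 70.2% lay in an H3K4me1 peak and 4.00% (3.40 to 4.70) in a valley, while the share in other gaps went from 0.822% in the strongest group to 25.8% in the weakest. Inside the valleys the summits had no preferred place: 447 of 872, or 51.3% (47.9 to 54.6), lay in the central 50% of the width.

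Strength of the shoulders moved coverage and summits differently. From the weakest to the strongest quartile of the weaker flanking signal value (medians 2.32, 2.68, 3.09 and 4.15), 18.3%, 17.6%, 20.6% and 29.7% of valleys were touched. The share with a summit was 3.74%, 3.09%, 3.78% and 2.98%, and the intervals of the first and last quartiles overlapped (3.30 to 4.24 and 2.58 to 3.42). In windows of the same width on the flanking summits, the share with an H3K27ac summit went from 12.9% to 22.7%. In the strongest quartile with both shoulders acetylated, 2197 valleys remained, and 6.83% of them held a summit, against 41.8% of the windows. Requiring acetylated shoulders raises the share in the windows by selection, so this contrast is a description only. Valleys between stronger shoulders were thus touched more often but did not hold a summit more often.

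Distance from H3K4me3 mattered less. Of valleys above 5000 to 10000 bp from an H3K4me3 peak 19.8% (18.8 to 20.9) were touched and 2.97% (2.56 to 3.45) held a summit, and above 100000 bp the shares were 22.3% (20.8 to 23.9) and 3.98% (3.30 to 4.79). The summit density ratio to the shoulders went from 0.232 to 0.299 between these bins. At the limits of the rule the shares changed little. They were 29.4% and 1.44% for the 20 widths from 200 bp upwards and 27.1% and 1.45% for the 20 widths just below. For the 20 widths up to 1000 bp they were 15.9% and 5.19%, and 14.4% and 4.68% for the 20 just above. In the band of 500 bp beyond an H3K4me3 distance of 5000 bp they were 17.6% and 2.06%, and 18.1% and 2.75% in the band of 500 bp inside it.

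Many valleys shared a shoulder. They formed 18862 runs, of which 14308 were a lone valley and 4554 held 2 or more with 1 H3K4me1 peak between neighbours. H3K27ac touched 19.3% (18.7 to 20.0) of the lone valleys, 22.8% (21.8 to 23.8) of those in runs of 2, 27.8% (26.1 to 29.5) in runs of 3 and 26.2% (24.2 to 28.3) in runs of 4 or more. The share with a summit was 3.31%, 3.31%, 4.09% and 3.41%. The longest run, on chromosome 2 from 102332475 to 102353845, held 11 valleys among 12 H3K4me1 peaks over 21.4 kb, of which 2 were touched and 0 held a summit. The next, on chromosome 5 from 80313018 to 80325837, held 9 valleys over 12.8 kb, and 0 were touched. The third, on chromosome 7 from 138072418 to 138084266, held 8 valleys over 11.8 kb, all 8 were touched, 4 were bridged and 1 held a summit. These long runs thus included a stretch with no valley touched and a stretch with every valley touched, though not every valley covered.

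Strong acetylation centred on a valley did occur. The valley whose own summit belonged to the strongest H3K27ac peak lay on chromosome 1 from 52155929 to 52156656. It was 728 bp wide, between H3K4me1 peaks with signal values of 5.17 and 4.56, and a single H3K27ac peak of 6702 bp with a signal value of 42.9 bridged it, with its summit 369 bp from the left edge. The next was on chromosome 8 from 137042029 to 137042469, bridged by a peak of 4370 bp with a signal value of 27.6, and lay 275.6 kb from H3K4me3. The third was on chromosome 2 from 54053895 to 54054296, with an H3K27ac signal value of 23.5 and its summit 67 bp from the left edge. The other two lay on chromosome 4 from 69598459 to 69599124, with a signal value of 21.3 and the summit likewise 67 bp from the left edge, and on chromosome 12 from 31901799 to 31902520, with a signal value of 20.9. All 5 were covered in full by their bridging peak. On chromosome 8 the summit was 328 bp from the left edge of 441 bp and on chromosome 12 it was 235 bp from the left edge of 722 bp. The summits on chromosomes 1, 8 and 12 thus fell in the central 50% of their valley, and those on chromosomes 2 and 4 did not.

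At the other end were valleys between strong H3K4me1 peaks without any acetylation in the gap or its shoulders. The one with the strongest weaker shoulder lay on chromosome 21 from 44695868 to 44696705, 838 bp wide between peaks with signal values of 12.4 and 11.1. Others lay on chromosome 22 from 39257749 to 39257965, between signal values of 11.2 and 9.96, and on chromosome 9 from 136360998 to 136361414, between 9.95 and 10.4. Their shoulders were 1807 to 4232 bp wide. These shoulders exceeded the median signal value of all flanking peaks, 3.43, yet overlapped no H3K27ac peak.

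Chromosomes differed in how often their valleys were acetylated. The share touched ranged from 14.3% on chromosome 14 to 37.9% on X, and the share with a summit from 2.08% on chromosome 16 to 7.08% on X. On X the density ratio of summits to the shoulders was 0.45, the highest of the 23, and it was 0.16 on chromosome 16, the lowest. A measure of how firmly peaks were called moved with these shares. Among H3K4me1 peaks with a signal value from 3 to 4, the median −log10 p-value was 7.04 on X, the lowest, and 13.7 on chromosome 20, the highest. Across the 23 chromosomes it ran against the share touched (Spearman rho -0.63, Pearson r -0.57), and across the 22 autosomes rho was -0.58. All chromosomes come from the same pooled libraries, so this is a description. Its part in the result was not tested.

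**Figure D5:**
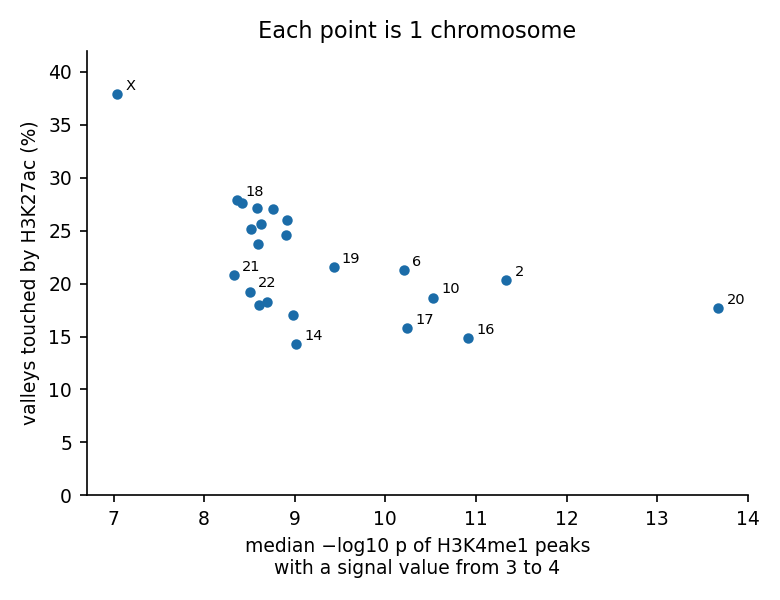
Share of valleys touched by an H3K27ac peak against the median −log10 p-value of H3K4me1 peaks with a signal value from 3 to 4. Each point is 1 of 23 chromosomes, with some labelled. X stands at the upper left with 37.9% and 7.04, and chromosome 20 at the right with 17.7% and 13.7.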

How the data were processed

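Peaks were called with MACS2 on hg19, per the submitters' processing notes; its version, its threshold, the use of the control libraries and the aligner are not given in the sources used here. The 3 deposited lists give each peak a signal value, stored as a score whose reference is not stated, the −log10 of its p-value and q-value as deposited by the authors, and a summit position. The lowest −log10 p-values were 2.00, 2.00 and 2.03 for H3K27ac, H3K4me1 and H3K4me3. The other score column was not used. No peaks of a list overlapped. Gaps, coverage and summit counts were computed with Python 3.11.15, numpy 2.4.6, pandas 2.3.3 and scipy 1.17.1, and plotted with matplotlib 3.10.9. Interval functions were tested on simulated data. Each flanking peak counted once in coverage and summit density. In the windows and in the distances and positions of flanking summits, a shared shoulder counted once for each valley beside it. Valleys named in the text were the 5 with the strongest H3K27ac peak among those holding a summit, the 3 with the strongest weaker shoulder among those without acetylation, and the 3 longest runs. The members and divisions were chosen with earlier results of these data known. The planned description of genes and sequences was not run, for want of an hg19 reference. The ranking of H3K27ac peaks in 10 groups, the strongest quartile with both shoulders acetylated and the chromosome relation were chosen after the data were seen.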

Additional observations from a re-analysis of the deposited data

Results flagged for a closer look

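Chromosome Y was outside the rule. Its 162 gaps between H3K4me1 peaks held 31 that met the width and distance limits. An H3K27ac peak touched 15 of these 31, or 48.4% (95% Wilson interval 32.0 to 65.2). The share touched over all 162 gaps is not given here, so the value cannot be set against other gaps of chromosome Y. A summit lay in 5, or 16.1% (7.09 to 32.6). No control values were analysed here.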

How the results depend on the processing

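No paired analysis was possible because each mark has 1 pooled list. For the same reason no replicate could be left out. Over 5 results 53 alternatives were computed, of which 30 stayed within 1.5 times a count, the Wilson interval of a share or 1 SD over chromosomes. A further 23 moved. The number of valleys and the shares have no direction that could reverse. Among the other results 0 reversed: the summit density ratio was below 1 in 11 of 11 alternatives and the coverage difference negative in as many. Keeping the first valley of each run was added after seeing the data. The number of valleys was 13538 with no H3K4me3 within 20000 bp, 13143 for gaps of 300 to 700 bp, 12095 with H3K4me1 peaks at a −log10 q-value of at least 5 and 6517 with both flanks at or above the median signal value. Under the same 4 alternatives the share touched was 22.6%, 20.7%, 28.4% and 29.6%. It was 20.8% with no H3K4me3 within 2000 bp, 18.9% for gaps up to 2000 bp, 18.9% with H3K27ac peaks at −log10 q of at least 5, 20.5% for first valleys and 12.8% with 50% of the gap covered. The share with a summit was 3.65% beyond 20000 bp, 3.70% up to 2000 bp wide, 3.80% and 1.91% with the q-value filters on H3K4me1 and H3K27ac, 2.88% with strong flanks and 1.77% in the central 50%. The density ratio was 0.188 up to 2000 bp wide and 0.186 with filtered H3K27ac. The coverage difference was -25.7 percentage points with strong flanks and -12.2 against windows. Depth per library is unknown.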
